A study of Bos taurus with 6 samples.

Results

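The genes of purine and pyrimidine synthesis and salvage described here number 39. Of these, 18 belong to de novo synthesis, 13 to salvage and breakdown and 8 are nucleotide kinases. All were listed by name, with earlier results of these data known. A gene counted as measured where the array had a probe annotated to it alone, and 36 of the 39 genes were measured among 18010 genes with such a probe. PRPS1 had no probe of its own, and AK4 and PNP lay only on probes that also carried another gene name, so these 3 genes have no value here. No sequence is shown because the reference tables used here hold none.

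Bovine granulosa cells from follicles of 2 to 6 mm, frozen and thawed before culture, were grown in medium that held FSH at 20 ng/mL and R3 IGF1 at 50 ng/mL. On day 2 the LY294002 group (3 arrays) received 50 μM of this compound, which inhibits PI3K and so acts upstream of AKT, in medium without FSH and IGF1, and the DMSO group (3 arrays) received vehicle in the same way. After 2 h most of the medium was exchanged for medium with both hormones, and the RNA is that of day 4. The base medium of all groups was αMEM, which is sold with and without nucleosides, and which of these was used is not given in the sources used here. Per the study's methods, replicates are separate cultures of cells collected on different days, and the labels do not say which arrays share a day.

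Purine and pyrimidine nucleotides are the building blocks of RNA and DNA and carry energy and signals in the cell. Cells make them de novo, from amino acids, folate-bound carbon and ribose phosphate, or recover them by salvage of free bases and nucleosides. Nucleotide kinases then raise the monophosphates from both routes to diphosphates and triphosphates, and nucleotidases, deaminases and oxidases break them down. In the ovarian follicle, granulosa cells that divide draw on these routes, and they pass nucleotides, cyclic GMP among them, to the oocyte through gap junctions.

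Signals are log2 values, so a difference of 1 is a doubling, and each probe was compared only with itself. The words rose and fell are kept for genes where the moderated test of limma gave an adjusted p under 0.05 over all 24415 probes and the fold change was at least 1.4, a log2 difference of 0.49. By this rule 5.96% of all probes passed, 3.38% lower and 2.58% higher, and of the probes with 1 gene symbol 6.98% passed, 3.99% lower and 2.99% higher. Array medians were 4.98 to 5.01, and probes had a median SD of 0.10 among LY294002 and 0.11 among DMSO arrays. All 12 granulosa cell markers checked were above the dimmest 25% of probes, and of these 1 rose and 4 fell. CYP17A1, which defines theca cells, lay among those dimmest probes, as did the endothelial markers PECAM1, KDR and EMCN and the macrophage marker AIF1. Other markers of these cells were brighter, among them INSL3 of theca cells, VWF, CD14 and CD68. INSL3 fell 2.07-fold (log2 fold change -1.05, adjusted p = 0.00763). LHCGR (-0.53, adjusted p = 0.0552), CYP17A1 (-0.04) and ANPEP (0.07) did not pass. The log2 of the summed signals of the 4 theca markers was 7.29 to 7.63 with LY294002, against 8.15 to 8.54 with DMSO. INSL3, by far the brightest of them, makes up most of this sum. The part of theca cells in the changes of nucleotide genes was not tested. Of 6 endothelial and 8 leukocyte markers limma called 0, with 1 and 2 lower and 0 higher at a p under 0.05 before adjustment. Arrays of whole cultures cannot tell fewer cells of a type from less RNA per cell, which holds for each result here.

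Of the 36 measured genes, ATIC, NME1 and UCK2 fell with LY294002, NT5E rose, and 32 passed neither way. The 3 falls are 8.33% of the measured genes, against 3.38% of all probes, and the single rise is 2.78%, against 2.58%. Leaving the fold aside, 8 genes (22.2%) were lower with an adjusted p under 0.05, compared with 7.21% of all probes (8.61% of those with 1 symbol), and 1 was higher, compared with 6.10%. Together these are 9 genes, beside 13.3% of all probes. The count of 8 was 5 without LY294002 replicate 3, 3 with the replicate number as a block and 14 with an intensity trend and robust estimation. The LY294002 values lay wholly below the DMSO values for 18 genes (50.0%), compared with 16.1% of all probes (18.8% of those with 1 symbol), and wholly above for 3, compared with 16.5%. In either direction 21 genes did not overlap, beside 32.7% of all probes. The log2 fold change was below 0 in 26 of the 36 genes (72.2%), against 46.1% of all probes (47.4% of those with 1 symbol), and its median was -0.16, against 0.02 over all probes. These shares describe genes listed with earlier results of these data known, and no test of the list was made.

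**Figure D1:**
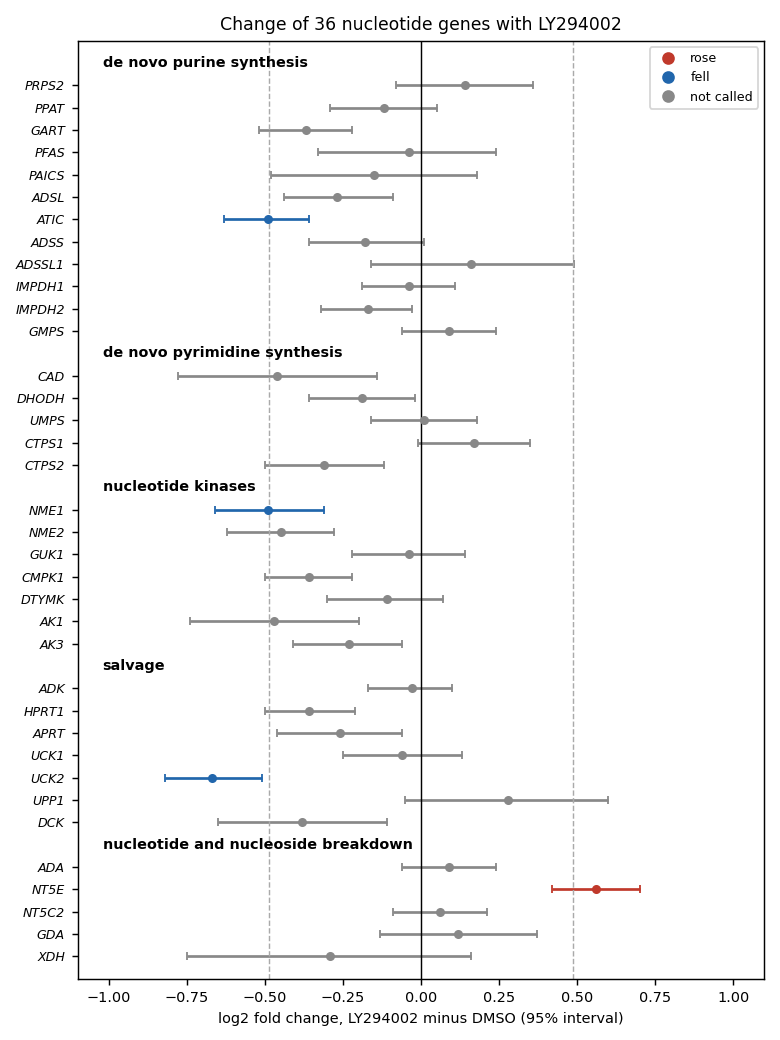
Log2 fold change of each of the 36 measured genes (x axis, LY294002 minus DMSO) with its 95% interval from limma, grouped by role. Dashed lines mark the 1.4-fold threshold, and ATIC, NME1 and UCK2 in blue fell, NT5E in red rose and the others in grey passed neither way.

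In de novo purine synthesis, the gene of the enzyme that closes the ring fell, and that of the enzyme that opens the pathway did not pass. ATIC (probe 12775434) encodes the bifunctional enzyme of the final steps to IMP. Its signal was 8.53, 8.54 and 8.52 in LY294002 cells, against 9.00, 9.05 and 9.02 in DMSO cells. The groups lay far apart and the arrays within each were nearly alike. ATIC fell 1.41-fold (log2 fold change -0.49, SE 0.06, limma adjusted p = 0.0032, n = 3 each). This lies at the fold threshold, and the log2 fold change was -0.48 without DMSO replicate 2 or with quantile normalization, which misses it.

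GART, which encodes a trifunctional enzyme acting earlier in the ring, had signals of 7.78, 7.72 and 7.80 in LY294002 cells and of 8.17, 8.17 and 8.08 in DMSO cells. All LY294002 arrays were below all DMSO arrays. The log2 fold change was -0.37 (SE 0.06, limma adjusted p = 0.0126), a fold of 1.3 that misses the threshold. ADSL, adenylosuccinate lyase, acts both in the ring and on the branch to AMP. It read 7.71, 7.62 and 7.63 in LY294002 cells, against 8.02, 7.84 and 7.90 in DMSO cells, again without overlap (log2 fold change -0.27, adjusted p = 0.0586).

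PPAT, the amidotransferase of the committed step, differed by -0.12 (95% interval -0.29 to 0.05, adjusted p = 0.349). PAICS, which carries out middle steps of the ring, differed by -0.15 (-0.48 to 0.18, adjusted p = 0.551). PPAT and PAICS are neighbours in the RefSeq assembly ARS-UCD2.0, and in both the values of the groups overlapped. PFAS, another amidotransferase of the ring, had a log2 fold change of -0.04 (-0.33 to 0.24). PRPS2, a synthetase of the ribose phosphate donor PRPP, read 7.57, 7.42 and 7.45 in LY294002 cells and 7.18, 7.44 and 7.41 in DMSO cells. DMSO replicate 1 was low, and the difference of 0.14 (adjusted p = 0.406) was 0.06 without that array.

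Past IMP, the pathway splits into AMP and GMP branches, and no enzyme of either branch passed the test. IMPDH2, the IMP dehydrogenase of dividing cells, had signals of 8.04, 8.03 and 8.02 in LY294002 cells, against 8.25, 8.21 and 8.15 in DMSO cells. The groups did not overlap, but the difference was small (log2 fold change -0.17, adjusted p = 0.114). Its relative IMPDH1 had a log2 fold change of -0.04 (95% interval -0.19 to 0.11), and GMPS, which completes GMP, had one of 0.09 (-0.06 to 0.24). On the AMP branch, the adenylosuccinate synthase genes ADSS (ADSS2 in current naming) and ADSSL1 (ADSS1, the muscle form in mammals) passed neither way, ADSS at -0.18 (adjusted p = 0.21) and ADSSL1 at 0.16 (adjusted p = 0.509). In sum 1 of 12 measured de novo purine genes fell and 0 rose, beside 3.38% and 2.58% of all probes. A log2 fold change below 0 was found in 9, beside 46.1% of all probes, and the median was -0.14. Before adjustment, 4 had a p under 0.05 and a lower value, beside 13.8% of all probes, and 0 a higher one.

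Pyrimidine synthesis opens with CAD, a single large protein that holds the enzymes of the early steps. CAD read 5.73, 5.48 and 5.19 in LY294002 cells, against 5.92, 5.95 and 5.91 in DMSO cells. The DMSO arrays were nearly alike and all LY294002 arrays were lower, but these spread widely, with an SD of 0.27 against 0.02. The log2 fold change was -0.46 (SE 0.13, limma adjusted p = 0.0728), and of the settings run CAD passed both thresholds only without LY294002 replicate 1 (-0.59, adjusted p = 0.0313). DHODH, the mitochondrial dehydrogenase of the pathway, differed by -0.19 on the log2 scale (adjusted p = 0.15) without overlap of the groups. UMPS, which completes UMP, differed by 0.01 (95% interval -0.16 to 0.18).

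The CTP synthase genes differed in sign. CTPS2 had signals of 7.32, 7.20 and 7.19 in LY294002 cells and of 7.67, 7.48 and 7.49 in DMSO cells (log2 fold change -0.31, adjusted p = 0.051). CTPS1 had signals of 7.76, 7.71 and 7.88 in LY294002 cells and of 7.67, 7.63 and 7.54 in DMSO cells (log2 fold change 0.17, adjusted p = 0.2). Neither gene passed, while the difference of CTPS1 minus CTPS2 on the same array was 0.44, 0.51 and 0.69 with LY294002, against 0.00, 0.15 and 0.05 with DMSO. The changes thus differed by 0.48 (two-sided exact permutation test, p = 0.1, the smallest that 3 arrays against 3 allow). Of the 5 measured de novo pyrimidine genes, 0 rose and 0 fell in limma. Before adjustment 3 had a p under 0.05 with a lower value, beside 13.8% of all probes, and 0 with a higher one. With moderation of the variances replaced by the plain analysis of variance, 0 passed as well. Over all 17 measured de novo genes the median log2 fold change was -0.15, and values ranged from -0.49 to 0.17.

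**Figure D2:**
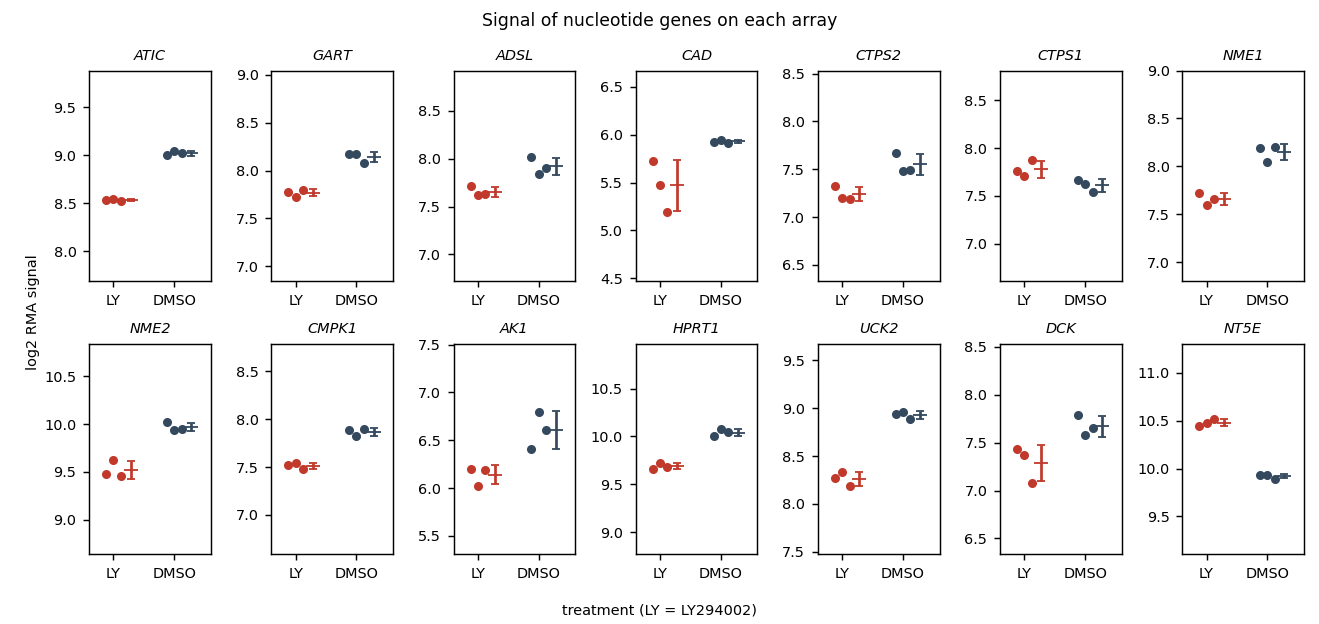
Log2 signal of 14 genes on each array, with a point for each of the 3 LY294002 arrays (left) and the 3 DMSO arrays (right), and the mean and SD beside them. In the 12 genes other than CTPS1 and NT5E the LY294002 points lie below the DMSO points, and all axes span the same range.

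The nucleotide kinases had a median log2 fold change of -0.36, and all 7 that were measured had a value below 0, beside 46.1% of all probes. This median was the lowest among the de novo purine, de novo pyrimidine, kinase, salvage and breakdown groups. NME1 (probe 12761394), a nucleoside diphosphate kinase that makes triphosphates at the expense of ATP, read 7.72, 7.60 and 7.66 in LY294002 cells, against 8.19, 8.05 and 8.20 in DMSO cells. The groups did not overlap, and NME1 fell 1.4-fold (log2 fold change -0.49, SE 0.07, limma adjusted p = 0.00807). Without DMSO replicate 1 or 3 or LY294002 replicate 2 the log2 fold change was -0.47, -0.46 and -0.46, and with quantile normalization -0.47, each just under the fold threshold.

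NME2, its close relative and neighbour in the same assembly, read 9.48, 9.62 and 9.46 in LY294002 cells and 10.02, 9.94 and 9.95 in DMSO cells. The log2 fold change of -0.45 (SE 0.07, adjusted p = 0.00979) stayed under the fold threshold, and reached -0.50 without LY294002 replicate 2. The changes of NME1 and NME2 differed by -0.04 (two-sided exact permutation test, p = 0.8). The files do not show whether probes of such similar genes tell their transcripts apart, and a further probe that carries both names was not used.

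CMPK1, which phosphorylates UMP and CMP from both routes, had signals of 7.52, 7.54 and 7.48 in LY294002 cells, against 7.89, 7.83 and 7.90 in DMSO cells (log2 fold change -0.36, SE 0.06, adjusted p = 0.0118). AK1, the cytosolic adenylate kinase that balances AMP, ADP and ATP, read 6.20, 6.02 and 6.19 in LY294002 cells and 6.41, 6.80 and 6.61 in DMSO cells. Its log2 fold change was -0.47 (SE 0.11, adjusted p = 0.0414), close to the fold threshold, and it passed with array weights (-0.49) and without DMSO replicate 1 (-0.57). The adjusted p was above 0.05 without each other array (0.0846 to 0.124), with the replicate number as a block (0.111) and without moderation of the variances (0.11). In both kinases the LY294002 values lay wholly below the DMSO values, as they did for 16.1% of all probes. AK3, an adenylate kinase of the mitochondrial matrix that uses GTP, lay lower on every LY294002 array (-0.23, adjusted p = 0.088). GUK1, the guanylate kinase (-0.04, 95% interval -0.22 to 0.14), and DTYMK, the thymidylate kinase (-0.11, -0.30 to 0.07), overlapped between the groups. Thus 1 of 7 kinases fell and 0 rose, beside 3.38% and 2.58% of all probes. At any fold, 4 were lower with an adjusted p under 0.05, beside 7.21% of all probes. That count was 2 without LY294002 replicate 3 and 1 with the replicate number as a block.

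In salvage, the clearest change was that of UCK2 (probe 12847134), the uridine-cytidine kinase that returns these nucleosides to the nucleotide pool. It read 8.27, 8.33 and 8.19 in LY294002 cells, against 8.94, 8.96 and 8.89 in DMSO cells. The groups were separated by more than their ranges, and UCK2 fell 1.59-fold (log2 fold change -0.67, SE 0.07, limma adjusted p = 0.00197). UCK1, the other uridine-cytidine kinase, overlapped between the groups (-0.06, 95% interval -0.25 to 0.13). The difference of UCK2 minus UCK1 was 1.72, 1.73 and 1.59 on LY294002 arrays, against 2.16, 2.41 and 2.29 on DMSO arrays, so the changes differed by -0.61 (two-sided exact permutation test, p = 0.1, again the smallest possible). Of the 5 pairs of related enzymes measured, those of IMPDH2 with IMPDH1 (-0.14) and of ADSS with ADSSL1 (-0.34) gave the same p. Adjusted over the 5 pairs, each p of 0.1 becomes 0.125, so no pair could pass in this design.

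HPRT1, which salvages hypoxanthine and guanine, had signals of 9.66, 9.72 and 9.68 in LY294002 cells and of 10.00, 10.08 and 10.05 in DMSO cells. It was lower without overlap, at 1.28-fold and under the fold threshold (log2 fold change -0.36, SE 0.06, adjusted p = 0.0123). APRT, which does the same for adenine, read 7.48, 7.47 and 7.38 in LY294002 cells, against 7.60, 7.85 and 7.67 in DMSO cells (-0.26, adjusted p = 0.0923). ADK, the adenosine kinase, was nearly level at 8.09, 8.11 and 8.06 with LY294002 and 8.12 on each DMSO array (-0.03, 95% interval -0.17 to 0.10). DCK, the kinase of deoxycytidine, differed by -0.38 on the log2 scale (adjusted p = 0.0745) on the probe with the higher signal and by -0.19 (adjusted p = 0.231) on its second probe, without overlap on either. UPP1, the uridine phosphorylase, went the other way (0.28, 95% interval -0.05 to 0.60), with overlap. Of 7 measured salvage genes 1 fell and 0 rose, beside 3.38% and 2.58% of all probes, with a median of -0.26.

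Among the genes of breakdown, NT5E was the one that rose. It encodes CD73, the surface enzyme that turns extracellular AMP into adenosine. Its brighter probe (12896617) read 10.44, 10.48 and 10.52 in LY294002 cells, against 9.93, 9.93 and 9.89 in DMSO cells. The log2 fold change was 0.56 (SE 0.06, limma adjusted p = 0.00236), or 1.48-fold. A second probe (12899267) read 10.24, 10.27 and 10.25 with LY294002 and 9.53, 9.63 and 9.53 with DMSO, and rose 1.61-fold (0.69, SE 0.06, adjusted p = 0.00148). On both probes the arrays of a group lay close together and the groups far apart.

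Stromal cells also carry CD73, and of 6 stromal fibroblast markers COL1A2 (0.60) and PDGFRA (0.69) rose and 0 fell. The other 4 had log2 fold changes below 0, at -0.17 for COL1A1, -0.02 for COL3A1, -0.05 for LUM and -0.29 for DCN, the last with an adjusted p of 0.0454. The log2 of their summed signals was 12.93 to 13.02 with LY294002 and 12.86 to 12.92 with DMSO, and the part of such cells in the rise of NT5E was not tested. The other genes of breakdown passed neither way. NT5C2, a cytosolic nucleotidase of IMP and GMP, had a log2 fold change of 0.06 (95% interval -0.09 to 0.21), and ADA, adenosine deaminase, one of 0.09 (-0.06 to 0.24). XDH, which forms urate, read 3.87, 3.72 and 3.12 in LY294002 cells and 3.86, 3.93 and 3.80 in DMSO cells. LY294002 replicate 3 was low, and the difference of -0.29 (adjusted p = 0.387) was -0.07 without it. GDA, guanine deaminase, lay among the dimmest 25% of probes (0.12, 95% interval -0.13 to 0.37).

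Set side by side, de novo synthesis had a median log2 fold change of -0.15 with 12 of 17 values below 0, and salvage with breakdown one of -0.05 with 7 of 12 below 0. Within this second set, salvage proper had 6 of 7 values below 0, and breakdown 4 of 5 above 0 (median 0.09). Of all probes, 46.1% lay below 0. Among the breakdown values above 0, that of NT5E (0.56) alone passed. The limma intervals of ADA (-0.06 to 0.24), NT5C2 (-0.09 to 0.21) and GDA (-0.13 to 0.37) included 0. The salvage value above 0 was that of UPP1 (0.28, interval -0.05 to 0.60). These signs alone thus do not show a division by role. The mean over the genes of a set, taken on each array as the difference from the DMSO mean of each gene, was -0.09, -0.15 and -0.15 for de novo synthesis with LY294002, against 0.01, 0.03 and -0.03 with DMSO. For salvage it was -0.18, -0.18 and -0.27, against -0.02, -0.01 and 0.02. The kinases had -0.31, -0.29 and -0.32, against -0.04, 0.02 and 0.02. Each of these sets was lower on every LY294002 array, and the difference between sets was not tested.

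**Figure D3:**
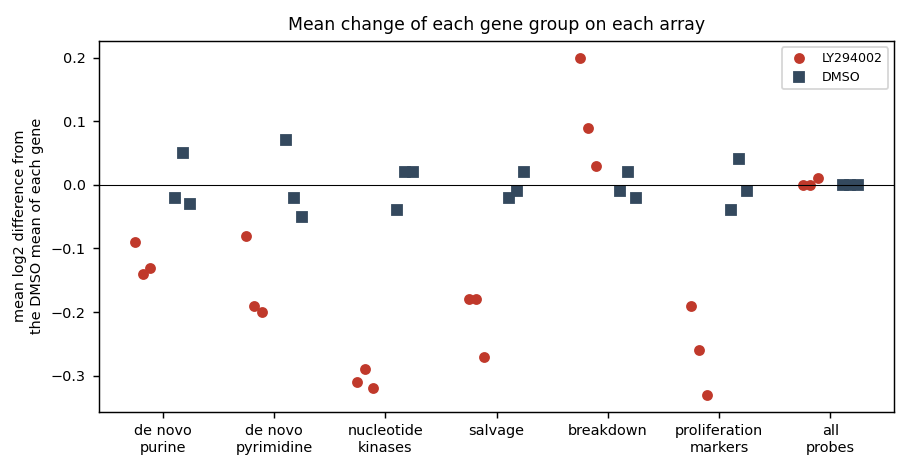
Mean log2 difference from the DMSO mean of each gene (y axis) on the 3 LY294002 arrays (red circles) and 3 DMSO arrays (squares), for each role group, the proliferation markers and all probes. The means of the kinases lie at -0.29 to -0.32 and those of the proliferation markers at -0.19 to -0.33 with LY294002. The mean of the breakdown genes, NT5E among them, lies above 0 with LY294002 (0.20, 0.09 and 0.03). That of all probes stays between 0.00 and 0.01.

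Markers of proliferation were lower as well. All 13 measured markers had a log2 fold change below 0, beside 46.1% of all probes, with a median of -0.21. AURKA fell (-0.81, limma adjusted p = 0.00135) and 0 rose, beside 3.38% and 2.58% of all probes. The other 12 markers did not pass. MKI67 (-0.39, adjusted p = 0.0286), CCNB1 (-0.42, 0.0161) and MCM2 (-0.37, 0.02) missed the fold threshold alone. At any fold, 4 markers were lower with an adjusted p under 0.05, beside 7.21% of all probes. The LY294002 values lay wholly below the DMSO values for 8 markers, beside 16.1% of all probes, and 5 markers overlapped. The log2 of their summed signals was 11.51 to 11.65 with LY294002, against 11.77 to 11.83 with DMSO. Their part in the lower nucleotide genes was not tested. Genes of deoxynucleotide supply formed a further list. TK1, the thymidine kinase of dividing cells, read 7.15, 7.09 and 7.05 in LY294002 cells, against 7.65, 7.77 and 7.74 in DMSO cells, and fell 1.54-fold (log2 fold change -0.62, SE 0.07, adjusted p = 0.00248). RRM2, the regulated subunit of ribonucleotide reductase, was at -0.24 on the log2 scale (adjusted p = 0.0756), and RRM2B, its p53-induced relative, at 0.18 (adjusted p = 0.348). SAMHD1, which degrades deoxynucleotide triphosphates, was lower at an adjusted p of 0.0161 but missed the fold threshold (-0.35). This list had 10 measured genes, of which 1 fell and 0 rose, beside 3.38% and 2.58% of all probes, with a median of -0.09.

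A wider set of 65 other genes of nucleotide metabolism was read in the same way in 7 lists, and 57 of them were measured. Of these, 8 fell (14.0%), beside 3.38% of all probes and 3.99% of those with 1 symbol. The 2 that rose (3.51%) stand beside 2.58% and 2.99%, and the median log2 fold change was -0.04. The lists with the most falls were those of transport and of the folate enzymes. SHMT2, the mitochondrial serine hydroxymethyltransferase that feeds carbon to the purine ring, had signals of 9.10, 9.08 and 9.00 in LY294002 cells, against 9.75, 9.81 and 9.79 in DMSO cells, and fell 1.65-fold (-0.72, SE 0.06, adjusted p = 0.00131). MTHFD1L, which releases mitochondrial formate, fell by 0.70 on each of its probes on the log2 scale (adjusted p = 0.00211 and 0.0134). MTHFD1, its cytosolic partner, differed by -0.40 (adjusted p = 0.0196), under the fold threshold, and MTHFD2 by -0.21 (adjusted p = 0.0829). In this list 2 of 5 genes fell and 0 rose, and the median of -0.40 was below that of the nucleotide kinases (-0.36).

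Nucleoside transporters moved in both directions. SLC29A1 (ENT1), the main equilibrative transporter of the plasma membrane, read 10.44, 10.36 and 10.38 in LY294002 cells, against 9.42, 9.62 and 9.59 in DMSO cells. It rose 1.8-fold (log2 fold change 0.85, SE 0.08, adjusted p = 0.0015). SLC29A2 (ENT2), which also carries free bases, had signals of 6.98, 6.75 and 6.68 with LY294002 and of 7.56, 7.64 and 7.68 with DMSO, and fell 1.77-fold (-0.82, SE 0.09, adjusted p = 0.0032). The 2 genes thus lay apart in opposite directions on all arrays.

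SLC29A3 (ENT3), the transporter of lysosomes, fell on its bright probe (-0.73, adjusted p = 0.00336) and missed on the other (-0.40, adjusted p = 0.0526). SLC28A2, a sodium-driven carrier of purine nucleosides, differed most in the wider set. It read 3.51, 2.85 and 3.16 in LY294002 cells, against 4.50, 5.05 and 4.54 in DMSO cells, a fall of 2.87-fold (-1.52, SE 0.21, adjusted p = 0.00642). Its LY294002 mean of 3.17 is at the level of the dimmest 25% of probes, whose means reach 3.17, so the size of this change is uncertain. The list of transport and extracellular nucleotides had 13 measured genes, of which 1 rose, 3 fell and 9 did not pass. Of all probes, 2.58% rose and 3.38% fell.

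**Figure D4:**
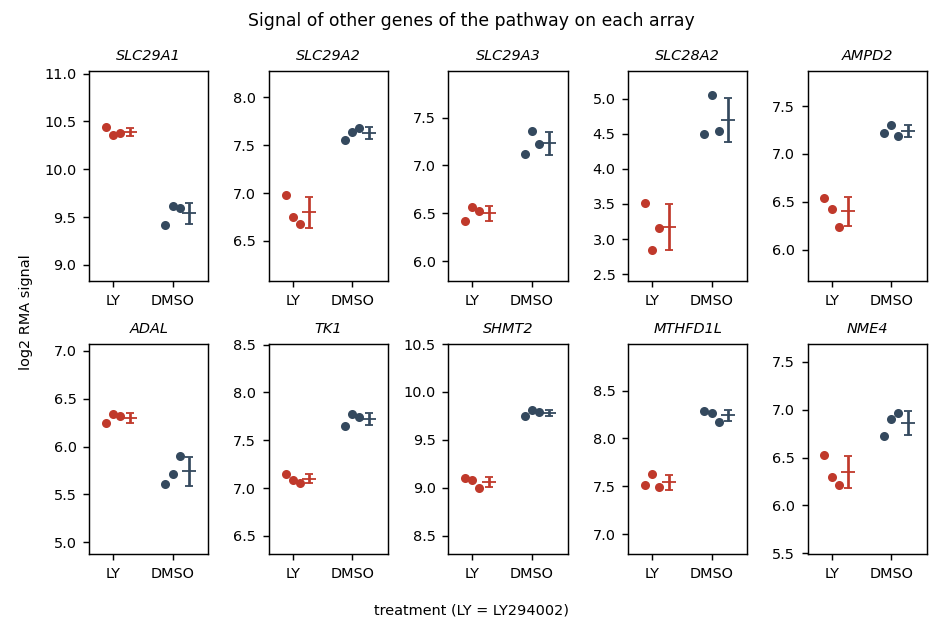
Log2 signal of the 10 other pathway genes that rose or fell, with a point for each of the 3 LY294002 arrays (left) and the 3 DMSO arrays (right), and the mean and SD beside them. SLC29A1 and ADAL are higher with LY294002 and the other 8 are lower, and the panel of SLC28A2 has a wider scale.

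In the list of other salvage and interconversion, AMPD2, the AMP deaminase that returns AMP to IMP, read 6.54, 6.42 and 6.24 in LY294002 cells, against 7.22, 7.30 and 7.19 in DMSO cells. It fell 1.79-fold (log2 fold change -0.84, SE 0.09, adjusted p = 0.00277), while AMPD3 differed by -0.17 (adjusted p = 0.361). ADAL, a relative of adenosine deaminase, rose 1.48-fold, with signals of 6.25, 6.34 and 6.32 in LY294002 cells and of 5.61, 5.71 and 5.90 in DMSO cells (0.56, SE 0.09, adjusted p = 0.0101). ADA2, a secreted deaminase, differed by 0.22 (adjusted p = 0.339) and lay among the dimmest 25% of probes. Of the 10 measured genes of this list 1 rose, 1 fell and 8 did not pass, while 2.58% of all probes rose and 3.38% fell.

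Among the other nucleotide kinases, NME4, the mitochondrial nucleoside diphosphate kinase, read 6.53, 6.30 and 6.21 in LY294002 cells, against 6.72, 6.90 and 6.97 in DMSO cells. It fell 1.43-fold (log2 fold change -0.52, SE 0.11, adjusted p = 0.0272). Its call was lost without DMSO replicate 2 (adjusted p = 0.0854) or 3 (0.0848), without LY294002 replicate 2 (0.0903) or 3 (0.0862), and without moderation of the variances (0.0819). NME3 (0.32, adjusted p = 0.0314) and NME7 (0.37, adjusted p = 0.0408) were higher on every LY294002 array and stayed under the fold threshold. AK8, an adenylate kinase of cilia, differed by -0.17 (adjusted p = 0.203). Thus 1 of 8 measured kinases of this list fell and 0 rose, beside 3.38% and 2.58% of all probes. Their median of 0.03 stands beside -0.36 for the 7 kinases above.

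The list of other breakdown genes held 9 measured genes, and limma called 0 of them, while before adjustment 1 higher and 1 lower gene had a p under 0.05. These were NT5M, the mitochondrial deoxynucleotidase (0.28, adjusted p = 0.161), and NT5C, its cytosolic relative (-0.16, adjusted p = 0.176). DPYS (0.24, adjusted p = 0.237) and NT5C3B (-0.11, adjusted p = 0.384) followed, and the plain analysis of variance called 0 as well. PRPSAP2, which binds the PRPP synthetases, differed by -0.08 (adjusted p = 0.5), and PRPS1L1, a testis form in human, by 0.17 (adjusted p = 0.597), with a probe among the dimmest 25%.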

How the data were processed

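The authors hybridized RNA of 3 LY294002-treated and 3 DMSO-treated granulosa cell samples to Bovine Gene 1.0 ST arrays and deposited log2 signals made with RMA, which corrects background, normalizes between arrays and summarizes probes. No build is given for the array in the sources used here. Of 24415 probes, 18457 carry 1 gene symbol in the platform annotation, 688 several and 5270 none, and only the first kind was named. Gene IDs of 17996 of these probes, with all 36 measured members, matched RefSeq (ARS-UCD2.0). A gene with several probes is given by the brightest. Groups were compared with limma (version 3.58.1, R 4.3.3; lmFit, eBayes, no covariates), adjusted by Benjamini-Hochberg over all probes, at the thresholds of the study's methods (adjusted p under 0.05, fold of at least 1.4). The test was first tried on simulated data. The number of arrays limits the precision. The members and lists were chosen with earlier results of these data known. All members are given, and of each other list up to 4 genes with the lowest adjusted p. Single cell type and proliferation markers were named after their values were seen. Promoter motifs and protein identities, also planned, were not analysed here. Alternatives changed the variance model, the block, scaling, filters, weights and thresholds, took the mean of a gene's probes, or left out each array.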

Additional observations from a re-analysis of the deposited data

How the results depend on the processing

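Across 15 settings other than fold thresholds, 495 of 505 values of the 36 members kept their side of the thresholds, 6 calls were lost and 4 were gained. At 2 decimals 7 values, of PFAS, UMPS, GUK1 and UCK1, had the opposite sign and 2 were 0, all of genes within 0.06 of 0 and not called. UCK2 and NT5E passed in every setting run except a fold of at least 2. With quantile normalization, 0 de novo members and 0 nucleotide kinases passed, as ATIC and NME1 dropped just under 1.4-fold. With array weights 2 kinases passed, AK1 being added. The count of all probes called was 1454. With no fold threshold, 3249 probes, 2 de novo members and 4 kinases passed, and with a fold of at least 2, 268 probes, 0 de novo members, 0 of salvage and breakdown, 0 kinases and 1 gene of the other lists. Leaving out each array in turn gave 1235 to 1372 probes, 0 to 2 de novo members, 2 to 2 of salvage and breakdown, 0 to 1 kinases and 9 to 10 genes of the other lists. The de novo count was 0 without DMSO replicate 2 and 2 without LY294002 replicate 1, and the kinase count was 0 without DMSO replicate 3. Without LY294002 replicate 2 NME2 passed and NME1 did not, and without DMSO replicate 1 AK1 passed and NME1 did not. The median log2 fold change of de novo members stayed between -0.17 and -0.13, that of the kinases between -0.37 and -0.34 and that of salvage and breakdown between -0.07 and -0.01. Samples of the same replicate number did not deviate together (r = -0.0437, -0.0214 and -0.0274 over probes), so the numbers were not taken as pairs. With the replicate number as a block, 1252 probes passed, no member's call at the fold threshold changed, the members lower with an adjusted p under 0.05 at any fold numbered 3 instead of 8, and of the genes named from the other lists NME4 was lost (adjusted p = 0.0956). The calls of ATIC and NME1 that were lost kept an adjusted p under 0.05 and missed the fold threshold alone.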
